A study of Mus musculus with 32 samples.

Results

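Epithelial-mesenchymal transition (EMT) genes were followed in the RPE of *rd1* mice whose eyes did or did not overexpress Nrf2. The 10 genes were chosen by symbol: the ligands *Tgfb1* and *Tgfb2*, the transcription factors *Snai1*, *Snai2*, *Zeb1*, *Zeb2*, and *Twist1*, and the mesenchymal products *Acta2*, *Vim*, and *Fn1*. Each matched 1 of the 34453 rows of the count table. In EMT, epithelial cells give up their junctions and their hexagonal packing, and take on the contractile cytoskeleton and the matrix of mesenchymal cells. TGF-β ligands, which are made in a latent form and released by integrins and proteases, signal through receptors and Smad proteins to transcription factors of the Snail, Zeb, and Twist families, and these repress epithelial genes. The RPE is an epithelium that is known to lose its shape in this way after retinal detachment and in other retinal disease.

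RNA came from both eyes of 16 mice, 7 at P20 and 9 at P40, giving 32 libraries. All mice were labelled *rd1*, a strain that loses its rods early, and their ages in days were 20 and 40. In each mouse, the Nrf2 eye was injected with AAV-Best1-Nrf2, which carries human Nrf2 behind the human Best1 promoter for expression in the RPE, and with AAV-Best1-GFP. The fellow eye, called the control eye, was given AAV-Best1-GFP without Nrf2. The control eyes thus had the same reporter virus, but per the methods the Nrf2 eyes had a larger total dose of virus, with the Nrf2 vector in a different capsid. Effects of dose or capsid cannot be told apart from those of Nrf2 in any comparison of the eyes. No uninjected eye was analysed here. The methods name fewer *rd1* pairs than the labels give at either age, and a further comparison in CD1 mice at P40. Whether some of the pairs labelled *rd1* at P40 are CD1 was not tested, and this bears on every value at P40 and between the ages. The retina was removed from each eyecup and the RNA released into the preservative was amplified, so that the libraries hold RNA from other cells of the eyecup too, and fewer cells of a type and less RNA per cell cannot be told apart.

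Total counts ranged from 16548332 to 50542797 per library. Values are in CPM, counts scaled to library sizes that were normalized by TMM, and 3 counts, taken as the floor, corresponded to 0.0565 to 0.182 CPM. All 12 RPE markers were detected, with a summed level of 12054 to 72661 CPM, although endogenous *Best1* had group means of only 1.53 to 2.96 CPM. In this sum *Ttr* had means of 3085 and 9363 CPM in control and Nrf2 eyes at P20. At P40 its means were 13626 and 19399 CPM, with up to 59307 CPM in a Nrf2 eye. The human *NFE2L2* transgene was at 1082 to 10431 CPM in the Nrf2 eyes and at 0 to 1098 CPM in the control eyes. With Nrf2, *Rpe65* was called lower at P20, and 5 of the 12 RPE markers were at P40 (*Rpe65*, *Rlbp1*, *Rgr*, *Lrat*, and *Rdh5*), where 0.485% and 1.23% of all genes were called lower. The cone markers, 2 of 6 of which were called lower at P20 and 6 of 6 at P40, summed to 246 to 1994 CPM in control eyes and 22.5 to 294 CPM in Nrf2 eyes at P40, and the part of either list in the values below was not tested. Both of the transgene values near the border belong to P20 libraries, the Nrf2 eye of mouse 4 and the control eye of mouse 3. The control eye of mouse 3, at 1098 CPM, held more transgene than the Nrf2 eye of mouse 4, at 1082 CPM. Within each of these mice the Nrf2 eye still held more. The Nrf2 eye of mouse 3 was at 7507 CPM, and the control eye of mouse 4 at 66.3 CPM. Between the libraries near the border, the squared difference relative to sampling noise had a median of 4.06 over genes. This median was 12.8 for the next closest of the 496 pairs of libraries. Whether these libraries were exchanged or mixed was not tested. At P20 and between the ages, values of the EMT genes that moved without mice 3 and 4 are therefore also given. Separate sequencing runs are mentioned in the labels, but which library was in which run is not, and no value within a run could be had. The labels of all P20 libraries begin with the letter M and those of all P40 libraries with A. If these letters mark separate handling, its effects cannot be told apart from those of age.

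None of the EMT genes passed the threshold in any comparison. Nrf2 eyes were compared with control eyes at each age with the mouse as a block, and P40 with P20 within the control eyes and within the Nrf2 eyes, by edgeR's quasi-likelihood test with Benjamini-Hochberg adjustment over all genes tested and a threshold of 0.05. At P20, 0 of the 10 genes tested were called, where 3.41% of all 16303 genes tested were called. At P40, *Snai1* was too low to be tested, and 0 of the other 9 were called, against 4.57% of all genes. Between the ages, 0 of the same 9 were called in control eyes, where 14.8% of all genes were called, and 0 in Nrf2 eyes, where 0.502% were. No member had groups that did not overlap, where 1.5% and 1.3% of all genes had such groups with Nrf2 at P20 and P40, and 1.84% and 0.812% with age in the control and the Nrf2 eyes. A count of 0 among 9 or 10 genes is near the background at shares of this size.

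At an unadjusted *P* value under 0.05, the genes numbered 1 at P20, 1 at P40, 2 with age in control eyes, and 3 with age in Nrf2 eyes, against 18.2%, 13%, 35.2%, and 25.8% of all genes tested. DESeq2 called 1, 1, 1, and 0 of the genes in these comparisons, and limma voom 1, 1, 2, and 0, with shares over all genes of 12%, 8.27%, 26%, and 10.9% for DESeq2 and of 16%, 7.95%, 22.3%, and 13.2% for limma voom. The genes behind the calls of these tools were *Vim* with Nrf2, and *Tgfb2* and *Tgfb1* with age. The median log2 fold change of the tested genes was −0.09 with Nrf2 at P20 and 0.04 at P40, beside −0.04 and −0.03 over all genes. It was 0.07 with age in control eyes and −0.16 in Nrf2 eyes, where the median over all genes was close to 0.

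**Figure D1:**
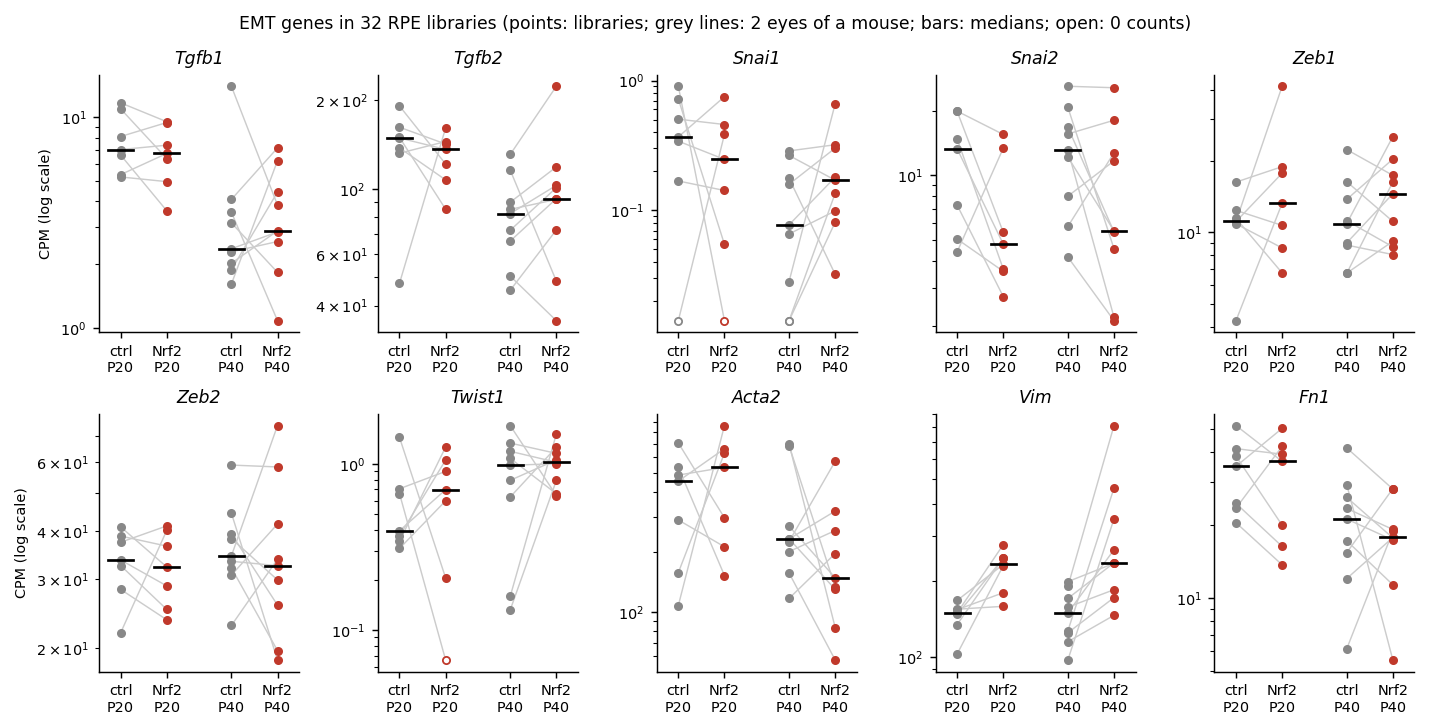
Level of each EMT gene in CPM on a log axis in the 32 libraries, with control eyes in grey, Nrf2 eyes in red, a line between the eyes of a mouse and a bar at each group's median; open points mark libraries with 0 counts, drawn at the foot of the panel. *Vim* was higher in the Nrf2 eye in each of the 16 pairs, while the lines of the other genes run in both directions.

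Per length of transcript, *Acta2* and *Vim* were the most abundant of the 10 and *Fn1* was in the middle of the order. The mean level over the 32 libraries was 166 CPM per kilobase for *Acta2*, 96.4 for *Vim*, 21.3 for *Tgfb2*, 5.32 for *Snai2*, 3.87 for *Zeb2*, 3.04 for *Fn1*, 2.45 for *Tgfb1*, 2.33 for *Zeb1*, 0.499 for *Twist1*, and 0.156 for *Snai1*. *Vim* was above *Tgfb2*, and *Zeb1* above *Twist1*, in 32 of 32 libraries. The neighbours in the middle of this order did not separate: *Snai2* was above *Zeb2* in 17 of 32 libraries, *Zeb2* above *Fn1* in 19, and *Tgfb1* above *Zeb1* in 17. *Snai1* was at or under the floor in 10 libraries and at 0 in 4 of these, which allows up to 3 counts there, and *Twist1* was at 0 in 1 library. Intervals of this kind cover counting error only.

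The ligands were compared first. *Tgfb1* (chromosome 7, 25687002 to 25705077, plus strand, GRCm38) encodes TGF-β1, and *Tgfb2* (chromosome 1, 186622792 to 186705989, minus strand) encodes TGF-β2, the more abundant of the pair in these libraries. In the control eyes, *Tgfb2* was at 47.6 to 192 CPM at P20, with a median of 149 CPM. At P40 it was at 45.1 to 131 CPM, with a median of 82.3 CPM. The lowest P20 library, the control eye of mouse 6, lay among the P40 values, and the groups overlapped. That library was also the highest of the 32 in the epithelial genes *Perp*, *Krt19*, *Elf3*, and *Cdh1*, at 3128, 2469, 1129, and 364 CPM. Their part in its *Tgfb2* value was not tested.

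The log2 fold change of *Tgfb2* with age in control eyes was −0.72 ± 0.26 (SE), with an adjusted *P* of 0.0686 in edgeR. It was called by DESeq2 (adjusted *P* = 0.0479) and by limma voom (adjusted *P* = 0.0107), and by edgeR once the P20 control eye of mouse 6 was left out (−0.87, adjusted *P* = 0.032). Without P20 mice 3 and 4 it was −0.71, with an adjusted *P* of 0.155. In Nrf2 eyes *Tgfb2* was at 85.2 to 161 CPM at P20 and 35.5 to 224 CPM at P40, a log2 change of −0.34 ± 0.29 (SE; adjusted *P* = 0.472). In the fit that keeps the mouse as a block, the changes with age of the 2 kinds of eye differed by 0.24 ± 0.36 on the log2 scale (adjusted *P* = 1.00), within the error. Within the mice, the Nrf2 eye held more *Tgfb2* in 2 of 7 pairs at P20 and in 7 of 9 at P40, with log2 fold changes of −0.10 ± 0.29 and 0.14 ± 0.21 (SE), adjusted *P* values of 0.895 and 0.895, both smaller than their SE, and the former was −0.04 without mice 3 and 4.

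Control eyes held 5.20 to 11.7 CPM of *Tgfb1* at P20, with a median of 7.01 CPM. At P40 the median was 2.37 CPM, with 1.61 CPM in the lowest control eye. The highest P40 control eye, that of mouse 8, lay above every P20 control eye. Its log2 CPM was 3.81, against a log2 CPM of 3.55 in the highest P20 control eye, that of mouse 6. The other 8 control eyes at P40 reached 4.07 CPM at most and lay below every P20 control eye. The log2 fold change of *Tgfb1* with age was −0.99 ± 0.41 (SE), with an adjusted *P* of 0.0992. Without the control eye of mouse 8 it was −1.55 with an adjusted *P* of 0.00406, and limma voom, which weights libraries by their quality, gave −1.40 with an adjusted *P* of 0.00106. Without P20 mice 3 and 4 it was −1.13, with an adjusted *P* of 0.138.

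In Nrf2 eyes *Tgfb1* was at 3.59 to 9.50 CPM at P20 and at 1.08 to 7.14 CPM at P40, with medians of 6.72 and 2.89 CPM and overlapping groups. Its log2 fold change with age was −0.88 ± 0.35 (SE; adjusted *P* = 0.138), of nearly the size measured in control eyes. Nrf2 itself went with log2 fold changes of −0.23 ± 0.22 at P20 (SE; adjusted *P* = 0.605) and 0.04 ± 0.42 at P40 (adjusted *P* = 0.989). *Tgfb1* was higher in the Nrf2 eye of 3 of 7 and 6 of 9 mice.

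Of the transcription factors, *Snai2* (chromosome 16, 14705852 to 14709385, plus strand) had the largest fold changes with Nrf2. It encodes Slug, a zinc finger repressor of E-cadherin that stratified epithelia and the neural crest also use. At P20 it was at 2.73 to 15.5 CPM in Nrf2 eyes, with a median of 4.79 CPM, and at 4.41 to 19.9 CPM in control eyes, with a median of 13.3 CPM. At P40 it was at 2.11 to 25.6 CPM in Nrf2 eyes, with a median of 5.52 CPM, and at 4.17 CPM or more in control eyes, with a median of 13.1 CPM and the highest in mouse 8. The groups overlapped over nearly their whole range, although the Nrf2 eye was the lower of the pair in 6 of 7 mice at P20 and 6 of 9 at P40.

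The log2 fold change of *Snai2* was −0.95 ± 0.44 at P20 (SE; adjusted *P* = 0.300) and −0.77 ± 0.39 at P40 (adjusted *P* = 0.471). The pair that went the other way at P20 was mouse 4, with 13.4 CPM in the Nrf2 eye and 4.41 CPM in the control eye. This Nrf2 eye is 1 of the libraries near the border of the transgene values. The other, the control eye of mouse 3, was at 13.3 CPM. Without mouse 4 the change was −1.33 and was called (adjusted *P* = 0.0200), and without mice 3 and 4 it was −1.28 (adjusted *P* = 0.0730). With age, *Snai2* had log2 fold changes of 0.20 ± 0.39 in control eyes and 0.52 ± 0.54 in Nrf2 eyes (SE), with adjusted *P* values of 0.732 and 0.561. The former was 0.05 without P20 mice 3 and 4.

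The levels of *Snai2* followed those of some epithelial genes from library to library, of which *Krt19*, *Cdh1*, *Elf3*, and *Epcam* were chosen after the values were seen. Among the 17958 other genes tested over the 32 libraries, the profile most like that of *Snai2* was *Perp*, a desmosomal protein of stratified epithelia, at a root mean square distance of 0.286 between standardised log2 CPM, against a median of 1.48 for all genes. It was followed by *Reep4*, *Pdlim1*, *Cdo1*, and *Ybx3*. Of the 8 libraries highest in *Snai2*, 7 were among the 8 highest in *Perp*, 7 in *Epcam*, 6 in *Elf3*, 5 in *Krt19*, and 3 in *Cdh1*. Of the 8 lowest in *Snai2*, 8 were among the lowest 8 in *Perp* and 7 in *Cdh1*, the gene for E-cadherin. *Perp* had the shape of *Snai2* on a far larger scale, from 158 to 3128 CPM. It was picked by this likeness, so the libraries it shares with *Snai2* are not separate evidence.

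These epithelial genes had the same direction as *Snai2* in the Nrf2 eyes at P20, and none was called. Of the 13 genes in the list of epithelial genes, 10 had a negative and 3 a positive log2 fold change there. The means of *Cdh3*, *Cldn1*, and *Krt18* at P20 were 121, 436, and 521 CPM in control eyes and 171, 505, and 572 CPM in Nrf2 eyes. *Krt19*, a keratin of simple and ductal epithelia, had a log2 change of −1.80 ± 0.75 (SE; adjusted *P* = 0.252), *Cdh1* one of −1.42 ± 0.72 (adjusted *P* = 0.343), and *Elf3*, an epithelial transcription factor, one of −1.24 ± 0.68 (adjusted *P* = 0.370). Each was higher in the Nrf2 eye of 1 of 7 mice only, and that mouse was mouse 4, whose pair differed by 2.96, 3.23, and 3.23 on the log2 scale. Its Nrf2 eye, near the border of the transgene values, was at 1087, 191, and 434 CPM. The control eye of mouse 3 was at 1103, 204, and 451 CPM. At P40 their log2 changes were −0.76 ± 0.57, −0.23 ± 0.69, and −0.64 ± 0.74 (SE), none called, and *Krt19* and *Elf3* were higher in the Nrf2 eye of 4 of 9 mice and *Cdh1* in 6 of 9, where *Snai2* was lower in 6 of 9. The part of these genes in the values of *Snai2* was not tested.

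**Figure D2:**
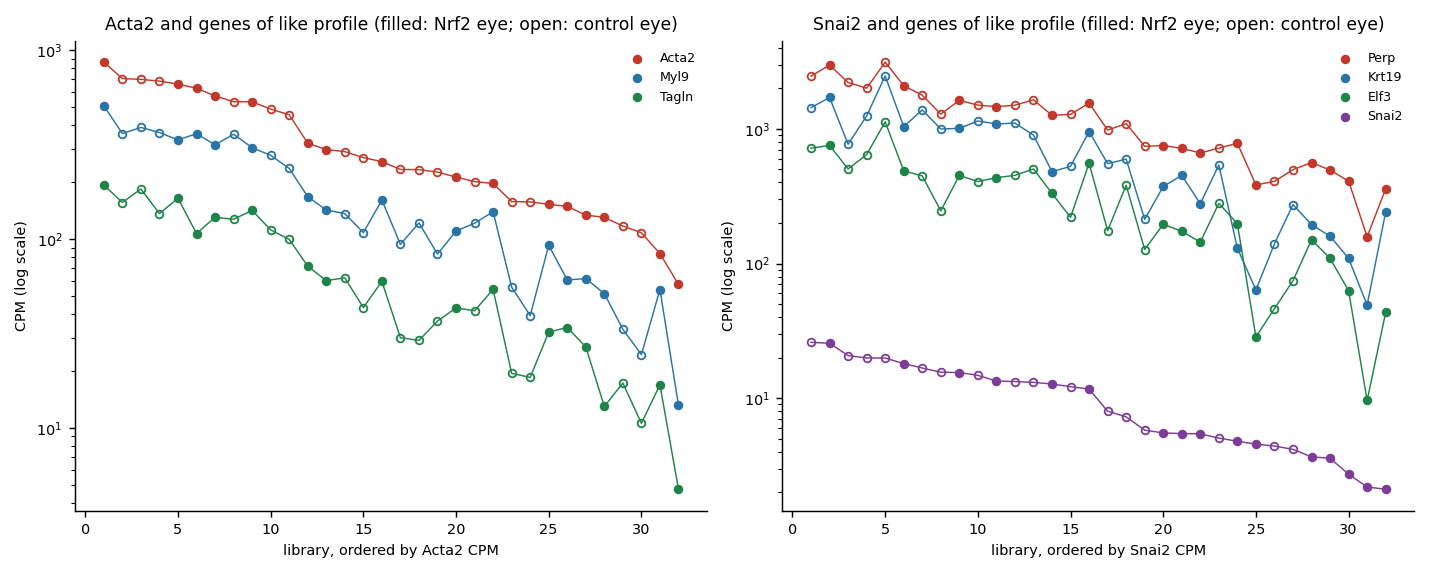
Left, *Acta2* with *Myl9* and *Tagln*, and right, *Snai2* with *Perp*, *Krt19*, and *Elf3*, in CPM on a log axis over the 32 libraries, ordered by *Acta2* or by *Snai2*, with filled points for Nrf2 eyes and open points for control eyes. The genes of each panel decline together along the order, with Nrf2 and control eyes mixed in the left panel. *Myl9*, *Tagln*, and *Perp* were picked for their like profiles, and *Krt19* and *Elf3* after the values were seen.

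*Snai1*, which encodes Snail, was the lowest of the 10. Its highest library was at 0.903 CPM, and its log2 fold change at P20 had the widest error, −0.56 ± 1.08 (SE; adjusted *P* = 0.827), so that no change was detectable at this depth. Without mice 3 and 4 it was −0.25 (adjusted *P* = 0.932). The E-box that Snail family proteins are known to bind, CAGGTG on either strand, stood in 20.2% of the 32851 promoter windows of RefSeq, each from 250 bases before to 50 bases after a start. Among the 7 members with such a window it stood in *Snai1* alone, in this stretch of GRCm38.p6 (chr2:167538045-167538094, plus strand, from 150 to 101 bases before the start, with the E-box in capitals), which is shown because Snail is known to repress its own gene.
Snai1: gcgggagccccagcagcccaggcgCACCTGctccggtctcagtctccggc
The core of the antioxidant response element to which Nrf2 binds, TGACNNNGC on either strand, stood in 12.4% of all windows, and among the members in that of *Twist1* only. *Vim* had neither motif in its window.

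*Zeb1* and *Zeb2* encode the zinc finger homeobox repressors that hold E-cadherin low in mesenchymal cells. *Zeb1* was at 4.24 to 16.3 CPM in control eyes and 6.74 to 41.4 CPM in Nrf2 eyes at P20, and its log2 fold change with Nrf2 was 0.40 ± 0.35 at P20 and 0.27 ± 0.24 at P40 (SE), with adjusted *P* values of 0.570 and 0.774. Without mice 3 and 4 the P20 change of *Zeb1* was 0.76 (adjusted *P* = 0.291). The Nrf2 eye was the higher in 4 of 7 and 5 of 9 mice. *Zeb2* had the smallest SD relative to its mean of the 10 over the 32 libraries, with 21.9 to 41.2 CPM over the P20 libraries and 18.7 to 74.4 CPM at P40. Its log2 fold change with Nrf2 was −0.07 ± 0.16 at P20 and −0.14 ± 0.24 at P40 (SE), with adjusted *P* values of 0.848 and 0.913, and was −0.02 at P20 without mice 3 and 4. With age, *Zeb1* had log2 fold changes of 0.12 ± 0.28 in control eyes and −0.16 ± 0.35 in the Nrf2 group, while *Zeb2* had changes of 0.19 ± 0.19 and 0.23 ± 0.27 (SE). In Nrf2 eyes these became −0.41 for *Zeb1* and 0.12 for *Zeb2* without P20 mice 3 and 4. *Zeb2* overlaps the antisense gene *Zeb2os*, *Tgfb2* overlaps *Gm29491*, and *Fn1* overlaps *Apol7d*, and without a stated strand in the counting their reads cannot be told apart.

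*Twist1*, a basic helix-loop-helix factor of the mesoderm and neural crest, had at most 1.70 CPM. Group means were 0.603 ± 0.402 CPM in control eyes and 0.673 ± 0.450 CPM in Nrf2 eyes at P20 (SD, n = 7), and 0.887 ± 0.520 CPM and 1.01 ± 0.282 CPM at P40 (SD, n = 9). The log2 fold change with Nrf2 was 0.08 ± 0.87 at P20 and 0.38 ± 0.49 at P40 (SE), and with age 0.59 ± 0.50 in control eyes and 0.60 ± 0.54 in Nrf2 eyes. Without P20 mice 3 and 4 *Twist1* had changes of 0.28 with Nrf2 at P20 and 0.90 with age in control eyes. The adjusted *P* values over all mice were 0.974, 0.868, 0.403, and 0.495, and every group overlapped with its comparison group.

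Of the mesenchymal products, *Vim* had the most even difference between the eyes. It lies on chromosome 2 (13573927 to 13582826, plus strand) and encodes vimentin, the intermediate filament of mesenchymal cells, which glia, macrophages, and cultured RPE also make. At P20 the control eyes were at 103 to 167 CPM, with a median of 149 CPM. The Nrf2 eyes were at 158 to 277 CPM, with a median of 232 CPM. The only overlap was that of the control eye of mouse 3 at 167 CPM with the Nrf2 eye of mouse 4 at 158 CPM, the libraries near the border of the transgene values. In the other 5 mice the control eyes reached 154 CPM at most and the Nrf2 eyes were at 179 CPM or more.

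At P40 *Vim* was at 97.6 to 198 CPM in control eyes, with a median of 149 CPM, and at 146 to 813 CPM in Nrf2 eyes, with a median of 235 CPM. The Nrf2 eyes of mouse 3 at 813 CPM, mouse 6 at 462 CPM, and mouse 4 at 350 CPM stood above the rest, while those of mice 1, 8, and 9 lay within the range of the control eyes. The Nrf2 eye of mouse 3 was also the highest of the 32 libraries in the summed level of 5 skeletal muscle markers, at 1769 CPM against 37.0 CPM in its control eye and 497 CPM in the next library. The Nrf2 eyes of mice 6 and 3 had the highest sums of Müller glia markers, at 1182 and 1131 CPM, and the part of either list in these *Vim* values was not tested. Within each mouse the Nrf2 eye was higher, in 7 of 7 pairs at P20 and 9 of 9 at P40. The differences on the log2 scale ranged from 0.04 to 1.15 at P20 and from 0.23 to 2.10 at P40.

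The log2 fold change of *Vim* with Nrf2 was 0.59 ± 0.14 at P20 (SE; adjusted *P* = 0.0644) and 0.88 ± 0.25 at P40 (SE; adjusted *P* = 0.0872), neither under the threshold. Of all genes tested, 5.59% were higher in the Nrf2 eye of every mouse at P20 and 3.55% at P40, 2.58% and 1.06% were lower in every mouse, and 264 genes, or 1.64% of the 16051 tested at both ages, were higher in all 16 pairs. *Vim* was the only one of the 10 genes with the same direction in every pair at either age. It was called by DESeq2 (adjusted *P* = 0.0042 at P20 and 0.016 at P40), by limma voom (0.0245 and 0.0332), and by edgeR without the mouse as a block (0.0135 and 0.048), with log2 fold changes of 0.52 to 1.06. At P20 it was also called without mouse 4 (0.67, adjusted *P* = 0.0217), and not without mice 3 and 4 (0.72, adjusted *P* = 0.0589).

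The effect did not differ between the ages beyond its error, with a difference of 0.29 ± 0.32 on the log2 scale (SE; adjusted *P* = 1.00). With age itself, *Vim* had log2 fold changes of 0.07 ± 0.17 in control eyes (SE; adjusted *P* = 0.779), or 0.13 without P20 mice 3 and 4, and 0.55 ± 0.32 in Nrf2 eyes (adjusted *P* = 0.290). The genes with profiles most like that of *Vim* were *Npdc1*, at a distance of 0.504 against a median of 1.40 for all genes, *Pgk1*, a glycolytic enzyme, *Gm1673*, *Sgce*, and *Ubqln2*.

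Markers of other cells that make vimentin were read beside it. The summed level of 6 Müller glia markers was 294 to 649 CPM in control eyes and 427 to 666 CPM in Nrf2 eyes at P20, and 341 to 792 CPM and 397 to 1182 CPM at P40, higher in the Nrf2 eye of 5 of 7 and 7 of 9 mice. Most of this sum was *Glul*, with means of 287 and 436 CPM in control and Nrf2 eyes at P20, while 5 of the 6 markers had a negative log2 fold change with Nrf2 at P20 (median −0.81) and 4 of 6 at P40 (median −0.22). By edgeR 0 of the 6 were called with Nrf2, 2 and 0 had an unadjusted *P* under 0.05 at P20 and P40, and DESeq2 called 1 and 0 and limma voom 3 and 0. Of all genes, edgeR called 3.41% and 4.57% at these ages, and 18.2% and 13% had an unadjusted *P* under 0.05. DESeq2 called 12% and 8.27% and limma voom 16% and 7.95%. The 8 macrophage markers summed to 98.0 to 303 CPM and 126 to 465 CPM at P20, and to 67.9 to 451 CPM and 92.5 to 331 CPM at P40. Of these, 4 were called higher at P40 (*Cx3cr1*, *C1qa*, *C1qb*, and *Adgre1*), and 7 of the 8 had a positive log2 fold change at P20 (median 0.82) and 6 of 8 at P40 (median 1.36). At P20, 0 were called by edgeR, 1 had an unadjusted *P* under 0.05, and DESeq2 called 3 and limma voom 0. At P40, 7 of the 8 had an unadjusted *P* under 0.05, and DESeq2 called 7 and limma voom 6. The sum was higher in 4 of 7 and 5 of 9 Nrf2 eyes, and *Csf1r*, a large share of it, had means of 167 and 100 CPM in control and Nrf2 eyes at P20 and 140 and 62.6 CPM at P40, changes that did not pass the test. The 7 fibroblast markers summed to 108 to 659 CPM and 285 to 972 CPM at P20, and to 82.3 to 456 CPM and 241 to 690 CPM at P40, higher in 4 of 7 and 7 of 9 Nrf2 eyes, with *Col3a1* called at P40 and positive log2 fold changes in 6 of 7 (median 0.34) and 7 of 7 (median 0.63). No marker of these lists was at 0 in every library of a group, and their part in the values of *Vim* was not tested.

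*Acta2* (chromosome 19, 34241090 to 34255590, minus strand) encodes smooth muscle α-actin, the mark of myofibroblasts and of the mural cells around vessels. Its SD relative to the mean was the largest of the 3 most abundant members. At P20 it was at 108 to 707 CPM in control eyes and 153 to 865 CPM in Nrf2 eyes, with medians of 455 and 533 CPM. At P40 it was at 117 to 700 CPM in control eyes and 57.5 to 572 CPM in Nrf2 eyes, with medians of 233 and 149 CPM. All 4 groups overlapped.

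The Nrf2 eye was higher in 4 of 7 mice at P20 and in 4 of 9 at P40, and single pairs differed by up to 3.00 and −3.06 on the log2 scale. The fitted changes with Nrf2 were 0.23 ± 0.60 at P20 (SE; adjusted *P* = 0.876) and −0.65 ± 0.45 at P40 (adjusted *P* = 0.666), and the former had the opposite sign with limma voom (−0.50) and was 0.49 without mice 3 and 4. With age, the log2 fold change was −0.28 ± 0.43 in control eyes (adjusted *P* = 0.668), which became 0.02 without P20 mice 3 and 4, and −1.16 ± 0.44 in Nrf2 eyes (adjusted *P* = 0.129). The near-identical actins *Acta1*, *Actc1*, and *Actg2* had group means of up to 98.9, 4.03, and 0.932 CPM, and reads shared with them may be split between the genes.

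*Tagln* and *Myl9*, which encode transgelin and a myosin light chain of smooth muscle, had the profiles most like that of *Acta2*, at distances of 0.269 and 0.276 against a median of 1.42 for all genes, and *Ces5a*, *Tgfb1i1*, and *Gnb4* came next. Of the 8 libraries highest in *Acta2*, 8 were among the 8 highest in *Myl9* and 7 in *Tagln*, and these libraries came from both ages and from Nrf2 and control eyes. Because *Myl9* and *Tagln* were picked by their likeness over the same libraries, these counts are not separate evidence. *Tagln* is also 1 of the 10 mural cell markers, whose summed level was 232 to 702 CPM in control eyes and 288 to 848 CPM in Nrf2 eyes at P20, and 109 to 444 CPM and 86.9 to 284 CPM at P40. With Nrf2, *Rgs5* and *Kcnj8* of this list were called lower at P20 and *Cspg4* and *Kcnj8* at P40, *Notch3* and *Myh11* were called lower with age in control eyes, and *Myh11* in Nrf2 eyes (−2.76 ± 0.50, SE; adjusted *P* = 0.0223). Of all genes, 0.485%, 1.23%, 6.42%, and 0.334% were called lower in these comparisons, in this order. Of the 10 mural markers, 5 had a positive and 5 a negative log2 fold change with Nrf2 at P20 (median −0.03). At P40, 4 were positive and 6 negative (median −0.29). With age, 2 were positive and 8 negative in each kind of eye. No mural marker was at 0 in every library of a group, and their part in the values of *Acta2* was not tested.

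The CArG box, to which serum response factor binds in smooth muscle genes, was searched as CC, 6 bases of which at least 5 were A or T, and GG, a pattern that reads the same on both strands. It stood in 9.98% of the 32851 promoter windows, and among the 7 members with a window in that of *Acta2* only. The stretches of *Acta2* and *Myl9* with the boxes in capitals are shown because these genes moved together over the libraries. They come from RefSeq on GRCm38.p6, from 150 to 21 bases before the start of *Acta2* (chr19:34255394-34255523, minus strand) and from 200 to 71 bases before the start of *Myl9* (chr2:156775264-156775393, plus strand).
Acta2: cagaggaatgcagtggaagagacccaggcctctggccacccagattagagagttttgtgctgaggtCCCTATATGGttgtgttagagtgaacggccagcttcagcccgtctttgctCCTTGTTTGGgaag
Myl9: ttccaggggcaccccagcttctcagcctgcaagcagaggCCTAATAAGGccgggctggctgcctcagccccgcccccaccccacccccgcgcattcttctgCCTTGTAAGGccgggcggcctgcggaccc
The RefSeq start of *Acta2* lies downstream of the start of the longer GENCODE gene given above, so this stretch falls inside the latter. Each stretch held 2 boxes. These are matches of letters, not measured sites.

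*Fn1* encodes fibronectin, a matrix protein that mesenchymal cells lay down. It was at 20.4 to 51.6 CPM in control eyes at P20 and 6.15 to 41.7 CPM at P40, with medians of 35.0 and 21.2 CPM, and at 13.7 to 50.2 CPM and 5.53 to 28.3 CPM in Nrf2 eyes, with medians of 36.7 and 17.8 CPM. The groups overlapped at both ages. The log2 fold change with age was −0.61 ± 0.31 in control eyes (SE; adjusted *P* = 0.162) and −0.73 ± 0.32 in Nrf2 eyes (adjusted *P* = 0.166). With Nrf2 it was −0.23 ± 0.23 at P20 (adjusted *P* = 0.643) and −0.21 ± 0.34 at P40 (adjusted *P* = 0.8996), with the Nrf2 eye higher in 2 of 7 and 3 of 9 mice.

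**Figure D3:**
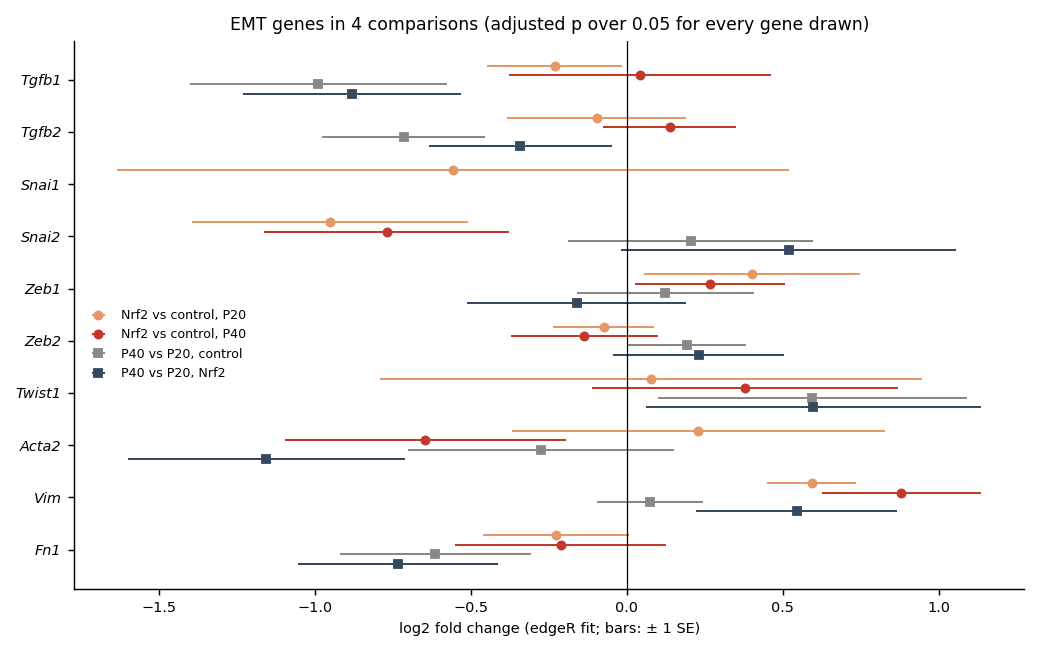
Log2 fold change of the EMT genes from the edgeR fits, with bars of 1 SE, for Nrf2 against control eyes at P20 and P40 (circles) and for P40 against P20 in control and in Nrf2 eyes (squares); *Snai1* was tested at P20 only. *Vim* lies at 0.59 and 0.88 with Nrf2, and *Tgfb1*, *Tgfb2*, *Fn1*, and *Acta2* lie below 0 with age in both kinds of eye.

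The Nrf2 effect on the 10 genes was also compared between the ages. None was called, where 1 of 17959 genes (0.00557%) was called over the whole table, 0 of the 10 had an unadjusted *P* under 0.05 where 2.39% of all genes did, and DESeq2 and limma voom, which called 0.0668% and 0.00557% of all genes, called 0 of the 10. The point estimates reached from −0.86 ± 0.78 for *Acta2* to 1.44 ± 1.32 for *Snai1* on the log2 scale (SE). Without P20 mice 3 and 4 they reached from −1.16 for *Acta2* to 1.08 for *Snai1*, and the differences were 0.13 for *Vim*, 0.49 for *Snai2*, and −0.52 for *Zeb1*.

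Other genes of the pathway were taken from lists that were chosen with earlier results of these data known. Of 29 genes of TGF-β signalling, 1 was called higher and 0 lower with Nrf2 at P20, where 2.93% of all genes were called higher and 0.485% lower, and the same counts held at P40, where the shares were 3.33% and 1.23%. The gene called was *Ctgf* each time, which encodes connective tissue growth factor, a secreted target of TGF-β and of YAP. It was at 44.6 to 145 CPM in control eyes and 130 to 319 CPM in Nrf2 eyes at P20, a log2 change of 1.21 ± 0.25 (SE; adjusted *P* = 0.0399), higher in 7 of 7 mice. At P40 it was at 57.8 to 164 CPM and 106 to 386 CPM, a log2 change of 0.94 ± 0.21 (adjusted *P* = 0.0221), higher in 8 of 9 mice. Leaving out mouse 1, 2, 3, 5, 6, or 7 at P20, or mouse 1, 4, 5, 7, 8, or 9 at P40, ended the call of *Ctgf*, with log2 changes of 1.06 to 1.39 and of 0.88 to 0.95, as did testing with no filter on low counts at P20 (1.22, adjusted *P* = 0.0569). The other genes of the list, among them the receptors *Tgfbr1*, *Tgfbr2*, and *Tgfbr3* and the Smads, did not pass the test with Nrf2, and the median of the list was 0.05 at P20 and 0.22 at P40, beside −0.04 and −0.03 over all genes.

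With age in control eyes, 5 of the 29 TGF-β genes were called lower (*Ltbp3*, *Smad3*, *Smad7*, *Smurf1*, and *Smurf2*), where 6.42% of all genes were called lower and 8.34% higher. DESeq2 called 11 and limma voom 14 of the 29, and 14 had an unadjusted *P* under 0.05, against 26%, 22.3%, and 35.2% of all genes. *Ltbp3* tethers the latent ligand, *Smad3* passes the signal on, and *Smad7*, *Smurf1*, and *Smurf2* damp it. Without P20 mice 3 and 4, 1 of the 29 was called, as the number of all genes called fell from 2483 to 158. The count was 2 or 3 without the P20 control eye of mouse 1, 2, 3, 4, 5, or 7 or the P40 control eye of mouse 2, 3, 5, or 7, and 9 and 14 without those of P40 mice 4 and 1. It was also 3 with no filter on low counts and with the correction for transcript length and GC content.

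In Nrf2 eyes 1 of the 29 was called higher with age and 0 lower, against 0.167% and 0.334% of all genes. DESeq2 called 3, limma voom called 12, and 8 had an unadjusted *P* under 0.05, against 10.9%, 13.2%, and 25.8% of all genes. The gene called by edgeR was *Pmepa1*, which encodes an inhibitor of Smad signalling that TGF-β induces. It was at 12.8 to 68.2 CPM at P20 and 83.8 to 163 CPM at P40, without overlap of the groups, a log2 change of 1.89 ± 0.30 (SE; adjusted *P* = 0.00712), which was called under all 24 alternatives tried. In the control eyes *Pmepa1* was at 5.11 to 75.0 CPM and 33.8 to 120 CPM, a log2 change of 1.05 ± 0.38 (adjusted *P* = 0.0677). 

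Of 24 other mesenchymal products, 0 were called with Nrf2 at P20 by edgeR (3 at an unadjusted *P* under 0.05, 2 by DESeq2, 4 by limma voom, and 3 by edgeR without mouse 4). The shares of all genes were 3.41% by edgeR, and 18.2%, 12%, 16%, and 12.2% in the order of the brackets. At P40 *Col3a1* was called higher and *Fap* lower, where 3.33% and 1.23% of all genes were. *Col3a1*, a fibrillar collagen, was at 3.33 to 35.6 CPM in control eyes and 4.33 to 51.5 CPM in Nrf2 eyes at P40, and the Nrf2 eye was higher in 9 of 9 mice, a log2 change of 1.13 ± 0.29 (SE; adjusted *P* = 0.0459). At P20 it had a change of 0.35 ± 0.23 (adjusted *P* = 0.469). *Fap*, which encodes fibroblast activation protein, was at 45.5 to 246 CPM in control eyes and 54.3 to 96.6 CPM in Nrf2 eyes at P40, lower in 8 of 9 Nrf2 eyes, with a log2 change of −0.83 ± 0.19 (adjusted *P* = 0.0295). Both calls were lost without mouse 1, 2, 3, 5, 7, or 9, where the changes of *Col3a1* were 0.99 to 1.20 and those of *Fap* −0.87 to −0.74, and that of *Col3a1* also with no block (0.92, adjusted *P* = 0.458). These members of 1 list thus went in opposite directions.

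With age in control eyes, 8 of the 24 mesenchymal products were called lower and 0 higher, beside 6.42% and 8.34% of all genes, and the median of the list was −0.83. The 8 were the collagen genes *Col1a1*, *Col1a2*, *Col3a1*, and *Col5a1*, *Sparc*, *Lox*, which encodes the enzyme that cross-links collagen, *Mmp14*, and *Itga5*. *Col1a1* was at 23.3 to 150 CPM at P20 and 5.97 to 62.4 CPM at P40, a log2 change of −2.47 ± 0.46 (SE; adjusted *P* = 0.00911), called under all 24 alternatives. *Col3a1* had a log2 change of −1.88 ± 0.45 (adjusted *P* = 0.0223) and *Lox* one of −1.77 ± 0.51 (adjusted *P* = 0.0350). The call of *Col3a1* was lost without P20 mice 3 and 4 (−1.78, adjusted *P* = 0.0794). That of *Lox* was lost in the same way (−1.75, adjusted *P* = 0.0929), with no filter on low counts (−1.84, adjusted *P* = 0.0505), with the length and GC correction (−1.62, adjusted *P* = 0.0563), and without the P20 control eye of mouse 1, 2, 3, 5, or 7 or the P40 control eye of mouse 3, 5, or 7, where its change was −1.79 to −1.62. In Nrf2 eyes 0 of the 24 were called with age by edgeR, although 13 had an unadjusted *P* under 0.05, and 8 were called by DESeq2 and 9 by limma voom, with a median of −0.66. The shares of all genes were 0.502%, 25.8%, 10.9%, and 13.2% in the same order. *Sparc* had the profile most like that of *Tgfb2* over the 32 libraries, at a distance of 0.471 against a median of 1.39 for all genes.

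The count of mesenchymal products called with age in control eyes fell to 1 without P20 mice 3 and 4, to 4 once transcript length and GC content were corrected for, and to between 3 and 5 when the P20 control eye of mouse 1, 2, 3, 5, or 7 was left out. The fibroblast markers *Col1a1*, *Col1a2*, *Col3a1*, and *Pdgfra* were called lower in the same comparison, 4 of the 7 of that list, and the first 3 of these are shared by the lists. The summed level of the 7 was 108 to 659 CPM at P20 and 82.3 to 456 CPM at P40 in control eyes. Its part in the values of the mesenchymal products was not tested.

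Of 17 other regulators of EMT, 15 were tested, and 0 were called with Nrf2 at either age by edgeR, 0 had an unadjusted *P* under 0.05, and DESeq2 and limma voom called 0 and 1 at P20 and 0 and 0 at P40. Without P20 mouse 4, edgeR called 6 of the 15 at P20, where 12.2% of all genes were called, and without mice 3 and 4 it called 1 of the 15. At P20, 14 of the 15 had a negative log2 fold change, with a median of −0.77 beside −0.04 over all genes. With age in control eyes 3 were called lower (*Tcf3*, *Foxc2*, and *Wwtr1*) and 0 higher, beside 6.42% and 8.34% of all genes. The count fell to 0 once P20 mice 3 and 4 were left out, or the P20 control eye of mouse 1, 2, 3, 5, 6, or 7 or the P40 control eye of mouse 2 or 5 alone, or once transcript length and GC content were corrected for. In Nrf2 eyes 0 were called by edgeR with age, 2 had an unadjusted *P* under 0.05, and DESeq2 called 0 and limma voom 3. Of 13 epithelial genes, which encode cadherins, keratins, and junction proteins, 0 were called in any of these comparisons by edgeR. Their median was −0.43 with Nrf2 at P20 and −0.32 at P40. At an unadjusted *P* under 0.05 they numbered 4 and 1 with Nrf2 at P20 and P40, and 2 and 4 with age in control and Nrf2 eyes. DESeq2 called 2, 0, 1, and 1 of them in these comparisons and limma voom 3, 0, 2, and 3, and edgeR called 6 of them at P20 without mouse 4 and 2 without mice 3 and 4. Of all genes tested, edgeR called 3.41%, 4.57%, 14.8%, and 0.502% in the same order of comparisons. The shares were 12%, 8.27%, 26%, and 10.9% for DESeq2 and 16%, 7.95%, 22.3%, and 13.2% for limma voom. At an unadjusted *P* under 0.05 they were 18.2%, 13%, 35.2%, and 25.8%.

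**Figure D4:**
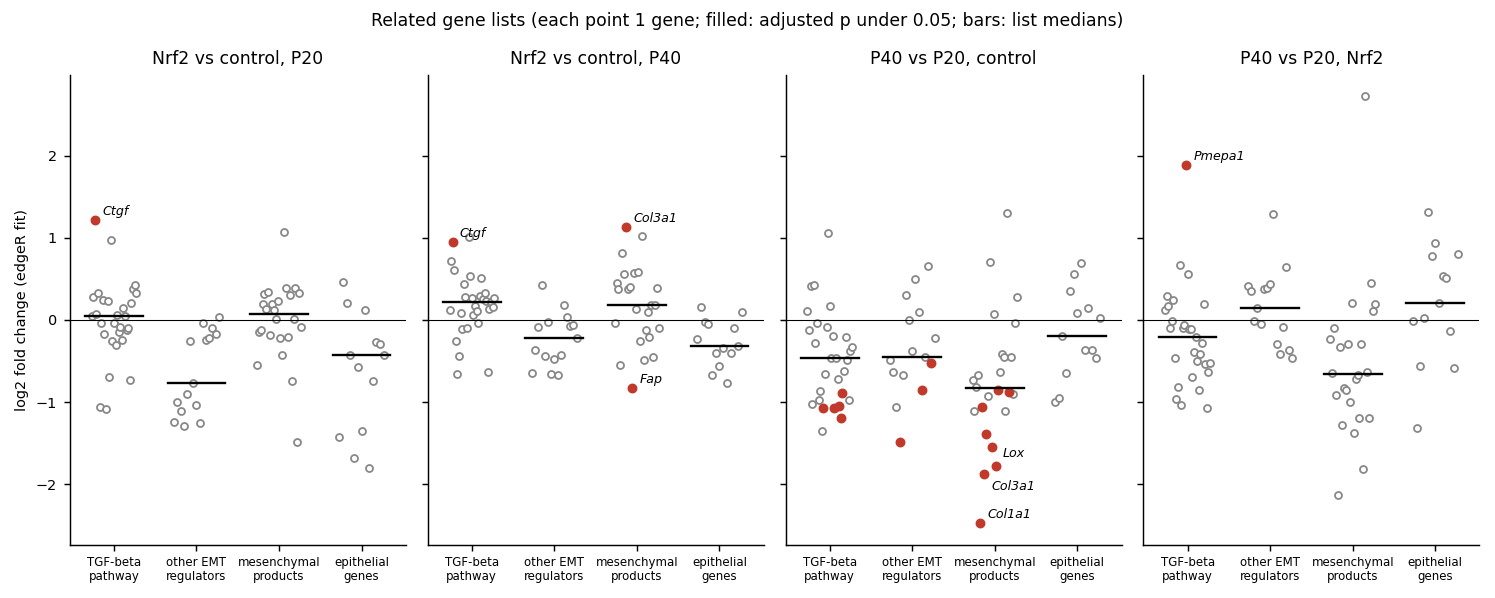
Log2 fold change of each gene of the 4 related lists in the 4 comparisons, with a bar at each list's median and filled points for an adjusted *P* under 0.05 in edgeR. The filled points are few with Nrf2 (*Ctgf*, *Col3a1*, and *Fap*), and all lie below 0 with age in control eyes.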

How the data were processed

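Libraries from both eyes of 16 mice were grouped by their labels. Per the methods, the authors first amplified the RNA. They aligned reads to mm10 with Ensembl release 91 using STAR, counted them with featureCounts, and in parallel quantified isoforms with Salmon (0.9.1 in the submitters' processing notes), which tximport summed by gene. The table the authors deposited holds estimated counts for each gene, rounded by them to integers, without normalization. Which counter made them is not given in the sources used here. Amplification before counting can add duplicate reads, and counts of long genes grow with their length, so levels of different genes were compared per kilobase of the longest coding transcript (GENCODE, GRCm38).

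In R 4.3.3, genes kept by filterByExpr were tested with edgeR 4.0.16 (TMM, quasi-likelihood test). Comparisons of the eyes had the mouse as a block, and those of the ages had none. SEs came from each log2 fold change with its F statistic. The fits ran over the whole table, and *P* values were adjusted over all genes tested. Pairs were compared on log2 CPM (prior count 2). The pairing comes from the labels. As a check, the deviations of paired eyes from group means were correlated across all genes, which gave a mean r of 0.0213 for the P20 mice and 0.0990 for the P40 mice. Alternatives were DESeq2 1.42.0, limma 3.58.1 (voom with quality weights), RLE normalization, no filter, at least 10 counts in every library, correcting for transcript length and GC content, no block, 1 fit over 32 libraries, P20 mice 3 and 4 left out, and each mouse or library left out.

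The 10 members and the lists were chosen with earlier results of these data known. Genes named beside the members are, per comparison, the 3 largest increases and decreases of the 4 related lists among genes called with a mean log2 CPM of at least 1, the called genes of each list, and the 5 genes of nearest profile for members at that level. *Krt19*, *Cdh1*, *Elf3*, and *Epcam* beside *Snai2* and the actins were chosen after the values were seen. Promoter windows were matched by symbol to RefSeq, which held 7 of the 10 members. The tests were checked on simulated counts first. A gene of the TGF-β list is not reported here.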

Additional observations from a re-analysis of the deposited data

Results flagged for a closer look

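The gap of a library to its nearest neighbour was taken as a share of its group's range, both in log2 CPM. Of 40 groups of libraries of a single EMT gene, 3 had a library whose share was larger than Dixon's 95% critical value. By chance alone about 1 such group in 20 is found. *Tgfb2* in control eyes at P20 had mouse 6 at 47.6 CPM, with a gap of 0.734 of the range. *Zeb1* in the same library was at 4.24 CPM, with a gap of 0.698. *Tgfb1* in control eyes at P40 had mouse 8 as the highest, with a gap of 0.576, and the changes of *Tgfb2* and *Tgfb1* with age without these libraries stand beside their values above.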

How the results depend on the processing

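Members called numbered 0 in each comparison, and 1 with Nrf2 at P20 with DESeq2, limma voom, or no replicate block, 1 at P40 with these and with 1 fit over 32 libraries, and 1 (DESeq2) and 2 (limma voom) with age in control eyes. Leaving out a mouse gave 0 to 2 at P20 (2 without mouse 4) and a library 0 to 1 with age in control eyes. The other alternatives gave 0. The number of genes called at P20 was 1951 with DESeq2, 2605 with limma voom, 348 with no filter, 1093 with no replicate block, and 111 (without mouse 7) to 1999 (without mouse 4) when a mouse was left out. At P40 it was 1380 with DESeq2 and 1327 with limma voom. With age in control eyes it was 4383, 3747, and 914 with DESeq2, limma voom, and no filter, 1245 with the length and GC correction, 158 without P20 mice 3 and 4, and 473 (without P20 mouse 5) to 4273 (without P40 mouse 1) when a library was left out. In Nrf2 eyes it was 1832, 2213, and 31 with DESeq2, limma voom, and no filter, 20 without P20 mice 3 and 4, 496 with 1 fit over 32 libraries, and 21 (without P20 mouse 6) to 190 (without P40 mouse 2) with a library left out. For the difference between the ages DESeq2 called 12. The cause of these shifts was not tested. The signs that turned were those of members with no call. On the log2 scale limma voom gave *Twist1* −0.0816 and *Acta2* −0.496 with Nrf2 at P20, *Zeb1* −0.0342, *Zeb2* −0.0385, and *Vim* −0.0817 with age in control eyes, *Zeb1* 0.211 and *Zeb2* −0.0518 in Nrf2 eyes, and *Zeb1* 0.0144 for the difference between the ages. The length and GC correction gave *Snai2* −0.125 with age in control eyes, *Zeb1* 0.0811 in Nrf2 eyes, and *Zeb2* 0.000762 and *Fn1* −0.128 for the difference, where *Fn1* was also −0.00735 with DESeq2, −0.00748 with RLE, and −0.00574 with at least 10 counts in every library. With age in control eyes *Vim* was −0.00776 with no filter and *Acta2* 0.0213 without P20 mice 3 and 4, and *Tgfb1* at P40 was −0.125 with no replicate block. The block changed no call of another member. With a mouse left out, the P20 change ranged from −1.10 to 0.0379 for *Snai1*, −0.287 to 0.556 for *Twist1*, −0.351 to 0.039 for *Tgfb2*, and −0.175 to 0.603 for *Acta2*, and the P40 change from −0.294 to 0.00503 for *Zeb2*, −0.188 to 0.280 for *Tgfb1*, and −0.424 to 0.0361 for *Fn1*. With a library left out, the change with age in control eyes ranged from −0.0948 to 0.246 for *Zeb1* and −0.0229 to 0.138 for *Vim*, and in Nrf2 eyes from −0.312 to 0.223 for *Zeb1*. The difference between the ages ranged from −0.0519 to 0.544 for *Snai2*, −0.329 to 0.117 for *Zeb1*, −0.240 to 0.0968 for *Zeb2*, −0.167 to 0.699 for *Twist1*, and −0.194 to 0.271 for *Fn1*. Depth limits *Snai1*, at or under the floor in 10 of 32 libraries.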
